A study of Mus musculus with 6 samples.

Results

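Oxidative phosphorylation is the last stage of respiration, in which electrons from NADH and succinate pass through complexes I to IV of the inner mitochondrial membrane to oxygen while protons are pumped out, and complex V, the ATP synthase, uses their return to make ATP. Complex II (succinate dehydrogenase) is also an enzyme of the tricarboxylic acid (TCA) cycle and pumps no protons. Nearly all subunits are encoded in the nucleus and the rest in mitochondrial DNA, and several subunits of complexes IV and V exist as isoforms made from separate genes in different tissues. In melanoma the coactivator PGC-1alpha (Ppargc1a) is a known driver of this gene programme.

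The genes described here were taken by symbol: those that start with Nduf (complex I and its assembly factors), Uqcr (complex III) or Atp5 (complex V), the cytochrome c oxidase genes Cox4 to Cox8 (complex IV), and Sdha, Sdhb, Sdhc and Sdhd (complex II). Of the Nduf genes, Ndufa4 and Ndufa4l2 were counted with complex IV. Of 20659 genes with a probe on the array, 93 met this rule, through 124 probes. A further 22 genes of the RefSeq table that met it had no matched probe, 19 of them pseudogenes and 3 protein coding (Ndufb1, Ndufb4b and Ndufb4c). A gene could be tested where 3 or more of the 6 arrays showed its brightest probe well above background, which held for 90 of the 93. The 3 others are all isoforms of complex IV: Cox7b2 and Cox8b were each well above background on 1 array, and Cox8c on none.

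The comparison is between 2 mouse melanoma cell lines: B16-F1, from the B16 tumour of the C57BL/6 strain, and D5.1G4, the reference line of the series. Neither was treated; both grew in RPMI-1640 with serum for 24 h before total RNA was taken. RNA of each was hybridised to 3 one-colour Agilent mouse arrays. Levels are log2 signals minus the 75th percentile of the array, so that 0 is the 75th percentile itself, and differences are B16-F1 minus D5.1G4. The 8 melanocyte markers examined were well above background on all 6 arrays, and their summed level, on the linear scale relative to the 75th percentile, ran from 450.2 to 567.6 in B16-F1 and from 573.8 to 800.0 in D5.1G4. Of these markers Pax3 was called lower in B16-F1 (log2 difference -1.30), but the markers did not all move the same way. Tyr was higher by 0.78 (adjusted p = 0.0058 by limma), and Mitf and Sox10 gave 0.36 and 0.15. Mlana gave -0.68 (adjusted p = 0.025 by limma), and Pmel, Tyrp1 and Dct -0.37, -0.45 and -0.54. With quantile normalization (described below) Mlana gave -0.26, and Pmel, Tyrp1 and Dct 0.039, -0.034 and -0.10. Summed levels of 6 tested macrophage and leukocyte markers overlapped between the lines (1.02 to 2.25 and 0.96 to 1.88). Some markers listed for other types were not well above background on any array: Dcn, Pdgfra and Thy1 (fibroblasts), Cdh5 and Tek (endothelium), and Actn3, Ckm and Myh4 (muscle). The endothelial markers Pecam1, Kdr and Vwf, however, were well above background on all 6 arrays. Their differences were 0.26, 0.31 and 0.33, with overlap between the lines. The other markers tested for these types included Col1a1, higher in B16-F1 by 1.73, Col1a2, lower (-3.74), and Tnnt2, higher by 2.21. The macrophage marker Cd14 was higher by 1.55, but its probe was well above background on only 3 of the 6 arrays. With quantile normalization Cd14 gave 1.47 and was not called (adjusted p = 0.088 by limma). The part of these marker differences in the results was not tested, and in a bulk sample fewer cells of a type and less RNA per cell cannot be told apart. The arrays came from 3 scans: B16-F1 replicates 2 and 3 from scan 1, B16-F1 replicate 1 and D5.1G4 replicates 2 and 3 from scan 2, and D5.1G4 replicate 1 from scan 3. Values within scan 2, the scan that holds both lines, are therefore given beside the main results.

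Promoters of the called genes are shown because many members moved the same way, and because respiratory genes are textbook targets of NRF1 and of ETS factors such as GABPA. The 250 bases before the start of 76 of the 93 members were in the RefSeq table (GRCm38.p6), and 17 members were not in it. Motifs were searched on both strands: CGCATGCG for NRF1, CCGGAAG for ETS factors and AAGATGG for YY1. A gene was counted where any of its windows held the letters. The NRF1 letters were found for 8 of 76 members (10.5%), against 1.75% of all 27025 genes. The ETS letters were in 14 (18.4% against 7.83%) and the YY1 letters in 1 (1.32% against 5.18%), while 19 (25.0% against 9.30%) held the NRF1 or the ETS letters. Of 7 called members in the table, Ndufaf4 held the NRF1 letters and Ndufb6, Uqcrh and Uqcr11 the ETS letters. Their windows follow, 5' to 3' on the gene's strand, with the matched letters in capitals (CTTCCGG is the ETS motif on the other strand). A match is a description of the letters and not a binding site.
Ndufaf4 (chr4:24897833-24898082, plus strand): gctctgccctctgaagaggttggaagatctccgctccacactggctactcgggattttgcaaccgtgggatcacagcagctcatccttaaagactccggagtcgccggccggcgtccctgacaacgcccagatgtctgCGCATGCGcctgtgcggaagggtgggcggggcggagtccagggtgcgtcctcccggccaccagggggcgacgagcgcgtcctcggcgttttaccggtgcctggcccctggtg
Ndufb6 (chr4:40279422-40279671, minus strand): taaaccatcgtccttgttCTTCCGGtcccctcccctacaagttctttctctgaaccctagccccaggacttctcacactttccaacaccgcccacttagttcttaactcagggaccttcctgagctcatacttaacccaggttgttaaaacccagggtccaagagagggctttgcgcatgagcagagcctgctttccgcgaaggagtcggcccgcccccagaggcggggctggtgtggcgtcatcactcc
Uqcrh (chr4:116075071-116075320, minus strand): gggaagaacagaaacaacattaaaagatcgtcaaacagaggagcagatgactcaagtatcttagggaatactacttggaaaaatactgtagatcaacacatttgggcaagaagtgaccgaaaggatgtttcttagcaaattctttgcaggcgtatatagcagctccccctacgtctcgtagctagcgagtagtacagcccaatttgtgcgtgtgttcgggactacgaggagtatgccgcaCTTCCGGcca
Uqcr11 (chr10:80406822-80407071, minus strand): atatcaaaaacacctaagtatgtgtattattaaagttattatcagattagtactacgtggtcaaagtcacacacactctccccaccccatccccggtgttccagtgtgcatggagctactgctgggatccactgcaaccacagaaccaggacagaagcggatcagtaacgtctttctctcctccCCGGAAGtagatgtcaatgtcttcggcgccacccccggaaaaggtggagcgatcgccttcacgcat
The windows of Ndufc2, Ndufa12 and Ndufa5 held neither the NRF1 nor the ETS letters, and Uqcrc2 and Ndufa4l2 were not in the table.

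Oxidative phosphorylation genes were mostly lower in B16-F1 than in D5.1G4, by less than 2-fold. Of 90 tested, 79 had a negative difference, and the median difference was -0.54 (a 1.46-fold lower level) against -0.0041 over all 18451 features. The median level over the members was 4.61, 4.71 and 4.53 on the B16-F1 arrays (in the order of replicate number, as below) and 5.18, 5.39 and 5.28 on those of D5.1G4, so that the lines did not overlap. At an adjusted p of 0.05 or less alone (limma, Benjamini-Hochberg over all features), 48 members fell (53.3%) where 20.4% of all features did, and 3 rose, Ndufa4l2 and Cox7a1 among them, where 14.5% did. With a fold of at least 2 as well, the rule for a call below, 8 members were called lower and 1 higher. All features gave 15.2% called in either direction, 8.89% lower and 6.29% higher, so the share called lower was that of the array as a whole. On the 76 members measured on every array, the lines did not overlap with B16-F1 lower for 51 genes, against 28.6% of all features.

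The size of the shift depended on the scaling, and the counts past a threshold on the scaling, the scan and single arrays. Of the members, 67 lay in the brightest 10% of features, where all features had a median difference of -0.26 and 21.2% fell at adjusted p alone, against a median of -0.60 and 42 of 67 members (62.7%). Quantile normalization, which equalises the arrays over the whole range of signal, took the brightest 10% of all features to 0.00016 and its members to -0.36, with 30 of 67 (44.8%) lower at adjusted p alone against 13.9%. Over all members it gave a median of -0.34, 36 lower at adjusted p alone, and 2 called lower. The 23 members outside that range had a median of -0.26 with the 75th percentile and -0.22 with quantile normalization. With the 75th percentile 16 of the 23 had a negative difference. At adjusted p alone 6 were lower (26.1%) and 3 higher, where 20.4% and 14.5% of all features were. Their median level on each array overlapped between the lines, unlike that of the members in the brightest 10%. Within scan 2 the median over the members was -0.61, and -0.15 over all features, but the 48 genes lower at adjusted p alone became 17 there, 23 with scan as a block and 7 without the scan 1 arrays, in fits with fewer arrays or fewer degrees of freedom. Leaving out each array in turn kept the median over the members between -0.60 and -0.49. The 48 became 25 when B16-F1 replicate 3 was left out and 29 when D5.1G4 replicate 3 was, and the 8 called lower became 5 when B16-F1 replicate 3 was left out and 4 when D5.1G4 replicate 2 was.

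**Figure D1:**
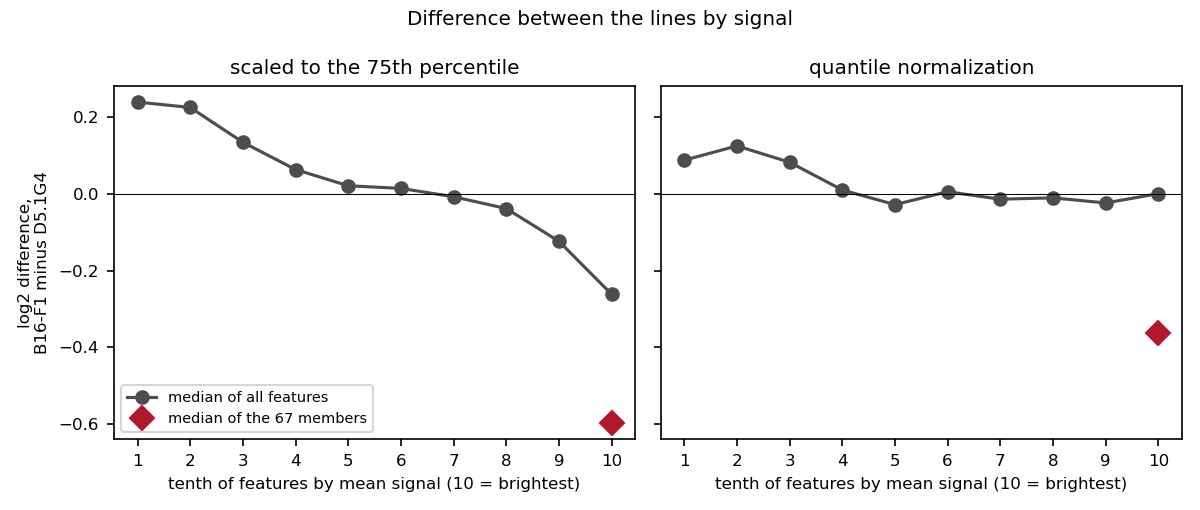
Median log2 difference, B16-F1 minus D5.1G4, of all features in each 10% step of mean signal (grey) and of the 67 members in the brightest step (red), scaled to the 75th percentile (left) or by quantile normalization (right). With the 75th percentile the grey line falls from 0.24 in the dimmest to -0.26 in the brightest step, and the members lie below it in both panels, at -0.60 and -0.36.

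**Figure D2:**
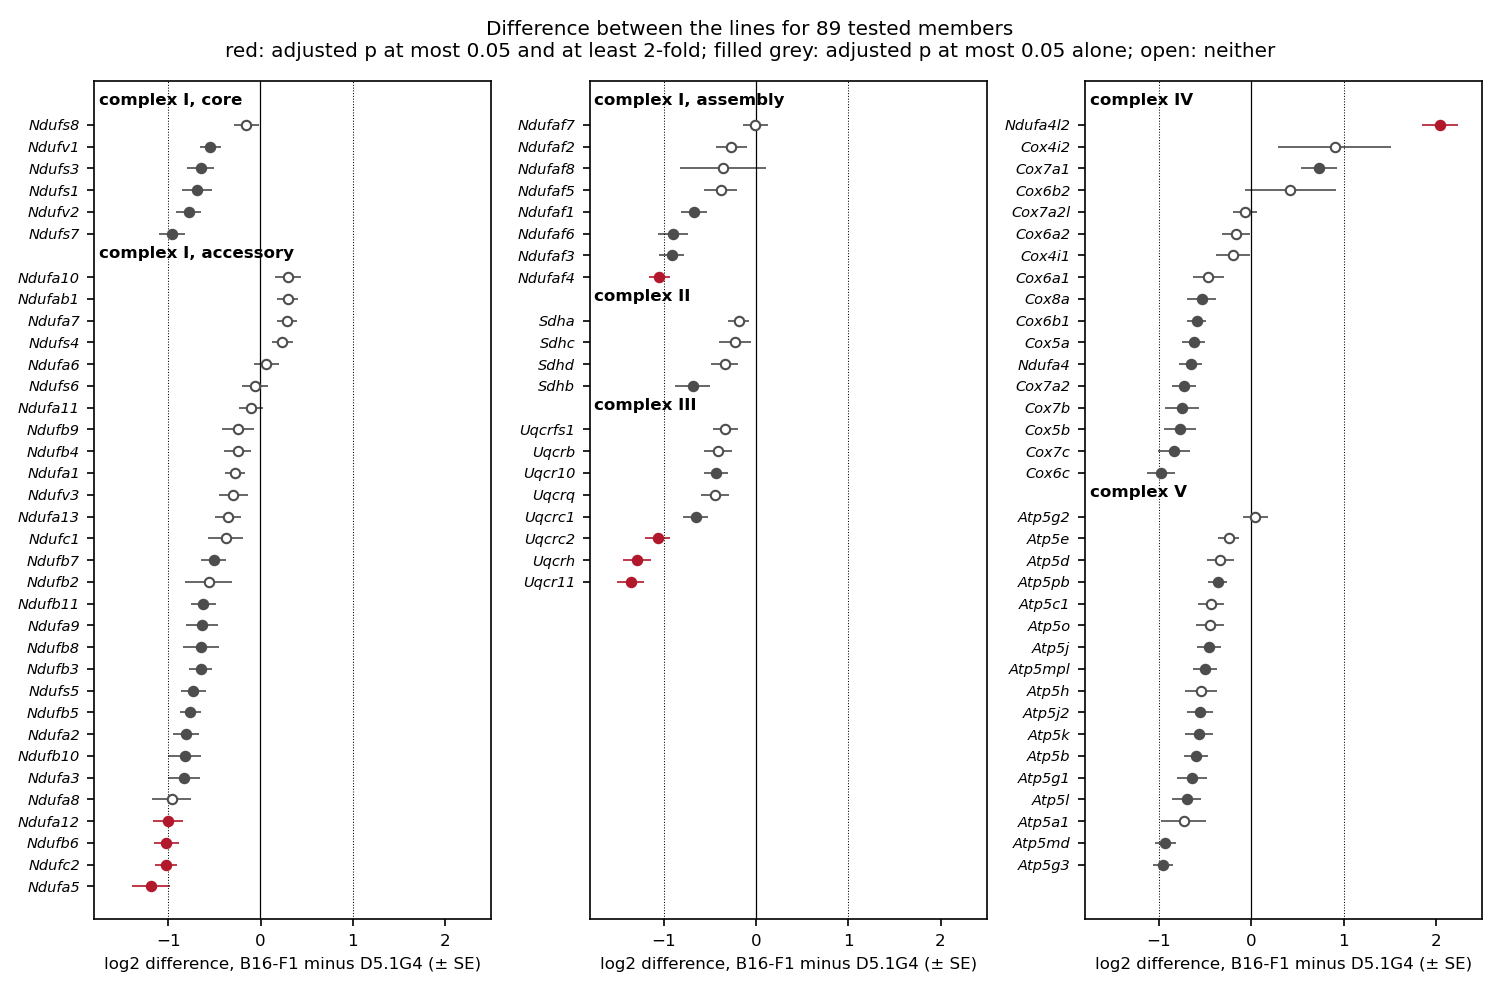
Log2 difference with its standard error for 89 of the 90 tested members, by complex; red marks called genes, filled grey an adjusted p of 0.05 or less alone, and open points neither. Dotted lines mark 2-fold, and 79 of the 89 points lie on the negative side.

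Complex I takes electrons from NADH. Its 7 tested core subunits, which carry the redox centres, had a median difference of -0.65 (-0.42 with quantile normalization), with 5 lower at adjusted p alone and none called. Counts here and for the other complexes are to be read against all features. Of these, 20.4% were lower and 14.5% higher at adjusted p alone, 8.89% were called lower and 6.29% called higher. Ndufs7, which holds the last iron-sulfur cluster before the quinone, read 4.46, 4.71 and 4.35 in B16-F1 and 5.35, 5.58 and 5.47 in D5.1G4. Its difference of -0.96 (SE 0.14, adjusted p = 0.0035 by limma) lay just short of 2-fold, and -1.07 within scan 2. Ndufs1, the largest subunit, fell by 0.69 (adjusted p = 0.019 by limma) and Ndufv1, which binds NADH, by 0.54 (adjusted p = 0.012), while Ndufs8 gave -0.15 (adjusted p = 0.40). Ndufs3 and Ndufv2, also core subunits, fell by 0.65 and 0.78 (adjusted p = 0.018 and 0.0070 by limma).

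The 29 tested accessory subunits, which surround the core, had a median of -0.56 (quantile -0.36). At adjusted p alone 14 were lower (48.3%, against 20.4% of all features) and none higher. Of the 29, 4 were called lower, where 8.89% of all features were. Ndufa5, in the matrix arm, read 5.23 and 5.14 on B16-F1 replicates 1 and 3, its spot on replicate 2 being left out as marked, against 6.05, 6.64 and 6.44 in D5.1G4. It was lower by 2.28-fold (-1.19 on the log2 scale, SE 0.21, adjusted p = 0.010 by limma; n = 2 and 3), and a second probe gave -0.78. Ndufc2, in the membrane arm, read 4.60, 4.77 and 4.66 against 5.62, 5.85 and 5.64. It was 2.04-fold lower (SE 0.12 on the log2 scale, adjusted p = 0.0016 by limma). Ndufb6, also of the membrane arm, read 4.04, 4.39 and 4.16 against 5.22, 5.32 and 5.11, a 2.03-fold lower level (adjusted p = 0.0025 by limma), and its other probe gave -0.87. Ndufa12, an accessory subunit of the matrix arm, read 4.66, 4.76 and 4.54 against 5.41, 5.91 and 5.65, a 2.00-fold lower level (adjusted p = 0.0048 by limma). All B16-F1 arrays lay below all D5.1G4 arrays for these 4 genes, with differences within scan 2 of -1.31 (Ndufa5), -1.15 (Ndufc2), -1.18 (Ndufb6) and -1.12 (Ndufa12). The 10 other accessory subunits lower at adjusted p alone ran from -0.83 (Ndufa3) to -0.51 (Ndufb7). One of them, Ndufb11 (-0.62), had a second probe at 0.51, and Ndufv3 (-0.30, not lower at adjusted p alone) had one at 1.23. Over all members, 23 genes had more than 1 probe passing the filter. Of these, 5 had probes of both signs: Atp5g2, Cox7a2l, Ndufb11, Ndufv3 and Sdhc. Positive differences were seen for Ndufa10, Ndufab1, Ndufa7, Ndufs4 and Ndufa6, up to 0.30 (Ndufa10, adjusted p = 0.17 by limma). None of these 5 passed the test, but with quantile normalization Ndufa7 (0.49, adjusted p = 0.010 by limma) and Ndufs4 (0.42, adjusted p = 0.020) did.

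The complex I assembly factors, the Ndufaf genes, build the complex without staying in it. The 8 tested had a median of -0.53, and -0.56 with quantile normalization, with 4 lower at adjusted p alone. Ndufaf4 read 2.24, 2.11 and 2.02 in B16-F1 and 3.14, 3.26 and 3.11 in D5.1G4. It was called lower (-1.05, SE 0.11, adjusted p = 0.0013 by limma; -0.94 within scan 2), although its other probe gave -0.37. Ndufaf3 (-0.91) and Ndufaf6 (-0.90) fell at adjusted p alone, with Ndufaf1 (-0.67, without D5.1G4 replicate 2, whose spot was marked), and the other values ran from -0.38 for Ndufaf5 to -0.0074 for Ndufaf7.

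Complex II was the group with the smallest median. Its 4 genes had a median of -0.28 (quantile -0.16), with 1 lower at adjusted p alone. Sdhb, the iron-sulfur subunit, read 6.00, 6.12 and 5.73 in B16-F1 and 6.31, 6.83 and 6.77 in D5.1G4, a difference of -0.68 (SE 0.19, adjusted p = 0.035 by limma). Sdha, the flavoprotein, gave -0.19 (adjusted p = 0.26), Sdhc and Sdhd, the membrane anchors, -0.23 (adjusted p = 0.39) and -0.34 (adjusted p = 0.14), all by limma, with n = 2 and 2 for Sdhc and 3 and 2 for Sdhd after marked spots were left out. Sdhc's probes had both signs.

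Complex III passes electrons from quinol to cytochrome c, and all 8 tested Uqcr genes were lower in B16-F1 with no overlap between the lines' arrays. Among all features measured on every array, 28.6% were lower without overlap. The median of the 8 Uqcr genes was -0.55 (quantile -0.39). At adjusted p alone 5 were lower (62.5%, against 20.4% of all features), and 3 were called lower, where 8.89% of all features were. Cyc1, a complex III subunit that the symbol rule leaves out, overlapped between the lines. It gave -0.37 (adjusted p = 0.14 by limma), and -0.16 with quantile normalization. Uqcr11, a small subunit, read 4.47, 4.38 and 4.22 in B16-F1 and 5.52, 5.92 and 5.71 in D5.1G4, and was 2.56-fold lower (-1.36, SE 0.15, adjusted p = 0.0012 by limma; -1.34 within scan 2). Uqcrh, the hinge protein, read 5.17, 5.16 and 5.03 against 6.47, 6.62 and 6.14, and was 2.45-fold lower (-1.29, SE 0.15, adjusted p = 0.0017 by limma; -1.42 from its other probe). Within scan 2 Uqcrh gave -1.21 and was no longer called (adjusted p = 0.053 by limma). Uqcrc2, core protein 2, read 3.92, 4.09 and 3.80 against 4.90, 5.16 and 4.95, and was 2.09-fold lower (adjusted p = 0.0020 by limma). Its partner Uqcrc1, core protein 1, fell by 0.65 (adjusted p = 0.011 by limma), and the Rieske subunit Uqcrfs1 gave -0.33 (adjusted p = 0.10). Only Uqcr11 and Uqcrh of the genes lower in B16-F1 remained called under quantile normalization, at -1.16 and -1.04. The 6 other genes called lower gave -0.79 to -0.99 there, and each of them also lost its call when at least 1 single array was left out.

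**Figure D3:**
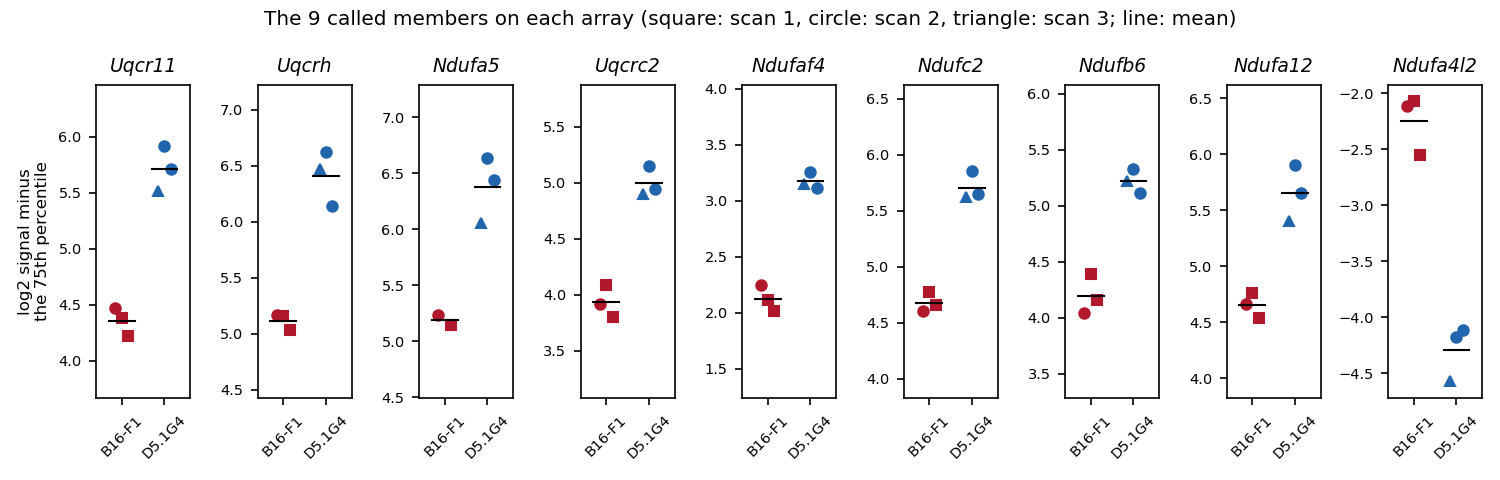
Level of each of the 9 called members on every array (log2 signal minus the array's 75th percentile; red B16-F1, blue D5.1G4, symbol by scan, line at the mean; the axes of all panels span the same length but start at different levels). The lines do not overlap in any panel, and Ndufa4l2 alone is higher in B16-F1.

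Complex IV reduces oxygen. Its 17 tested genes, Ndufa4 and Ndufa4l2 among them, had a median of -0.54 (quantile -0.22), with 9 lower and 2 higher at adjusted p alone. Among the subunits found in every tissue, Cox5a fell by 0.63 (adjusted p = 0.011), Cox5b by 0.77 (adjusted p = 0.017) and Cox6b1 by 0.59 (adjusted p = 0.0067), all by limma. The largest negative value of the complex was that of Cox6c, which read 4.90, 4.67 and 4.87 against 5.69 and 5.89 on D5.1G4 replicates 1 and 3. It fell by 0.98 (SE 0.15, adjusted p = 0.0065 by limma; n = 3 and 2), just short of 2-fold. Cox7b and Cox8a, small subunits, fell by 0.75 (adjusted p = 0.022) and 0.54 (adjusted p = 0.042), both by limma. Cox7c gave -0.84 with 1 D5.1G4 array left (n = 3 and 1), so that its spread comes from B16-F1 and the rest of the model; it is among the 9 lower (adjusted p = 0.027 by limma), but its other probes gave -0.79 and -0.21. Cox4i1 gave -0.20 (adjusted p = 0.44 by limma), and its sign turned with quantile normalization, at 0.076.

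The largest positive difference was that of Ndufa4l2, a paralogue of the complex IV subunit Ndufa4 that is known to be induced in low oxygen. It read -2.12, -2.07 and -2.56 in B16-F1 and -4.57, -4.18 and -4.12 in D5.1G4, and every array was well above background. The gene was higher in B16-F1 by 4.12-fold (2.04 on the log2 scale, SE 0.19, adjusted p = 0.00076 by limma), with 2.03 within scan 2 and 1.94 with quantile normalization. Ndufa4 itself fell by 0.66 (adjusted p = 0.014 by limma; n = 3 and 2). Cox7a1, the heart and skeletal muscle isoform of subunit 7a, read -2.56, -2.37 and -2.62 against -3.59, -2.90 and -3.27, and rose by 0.74 (adjusted p = 0.030 by limma; 0.52 within scan 2), whereas its widely expressed counterpart Cox7a2 fell by 0.73 (adjusted p = 0.0073 by limma).

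Differences of an isoform pair were compared as the difference of one gene minus that of the other on each array, so that a scaling factor common to an array drops out. A shift that depends on signal does not drop out where the genes differ in brightness. Ndufa4 and Cox7a2 lay in the brightest 10% of features, where all features had a median difference of -0.26. Ndufa4l2 and Cox7a1 lay in a dim 10% step, where that median was 0.13. Levels of different probes were not set against each other. Of 12 pairs, 9 had both genes tested, and with 3 arrays against 3 the smallest 2-sided exact permutation p is 0.1. The ratio of Ndufa4 to Ndufa4l2 was lower in B16-F1 by 2.75 log2 units (exact permutation p = 0.1, adjusted 0.15; n = 3 and 2; -2.70 within scan 2). The ratio of Cox7a2 to Cox7a1 was lower by 1.47 (-1.47, exact permutation p = 0.1, adjusted 0.15, and -1.38 within scan 2). That of Cox7a2 to Cox7a2l, a factor for joining respiratory supercomplexes, was lower by 0.67 (-0.67). With quantile normalization these ratios gave -2.44 (Ndufa4 to Ndufa4l2), -1.15 (Cox7a2 to Cox7a1) and -0.62 (Cox7a2 to Cox7a2l). The 3 genes of the c subunit of ATP synthase, which encode the same mature protein, had differences of unlike size: Atp5g3 fell by 0.95 (adjusted p = 0.0015 by limma), Atp5g1 by 0.64 (adjusted p = 0.025), and Atp5g2 gave 0.044 (adjusted p = 0.83, probes of both signs). With quantile normalization Atp5g3 gave -0.68, Atp5g1 -0.38 and Atp5g2 0.35, the last higher at adjusted p alone (0.045 by limma). The exact p of each of these 3 pairs was 0.1 too, with ratios differing by -0.68 (Atp5g1 to Atp5g2), 0.31 (Atp5g1 to Atp5g3) and 1.00 (Atp5g2 to Atp5g3).

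Pairs of other isoforms overlapped between the lines. Cox4i2, the isoform of subunit 4 best known from lung and low oxygen, read -0.74, 1.09 and 1.13 in B16-F1 and 0.41, -1.06 and -0.59 in D5.1G4. It was low on all 3 arrays of scan 2 and higher on the 3 arrays of scans 1 and 3, whatever the line. Its difference was 0.90 (SE 0.62, adjusted p = 0.30 by limma), 0.082 within scan 2, -0.33 without the scan 1 arrays and 1.52, called, without B16-F1 replicate 1. The Cox4i1 to Cox4i2 ratio differed by -1.10 (exact permutation p = 0.2). Cox6b2, a testis isoform, gave 0.42 (-0.13 within scan 2), and the Cox6b1 to Cox6b2 ratio -1.01 (exact permutation p = 0.2). Cox6a2, a muscle isoform, gave -0.16, and the Cox6a1 to Cox6a2 ratio -0.30 (exact permutation p = 0.3), a sign that turned to 0.063 with quantile normalization.

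**Figure D4:**
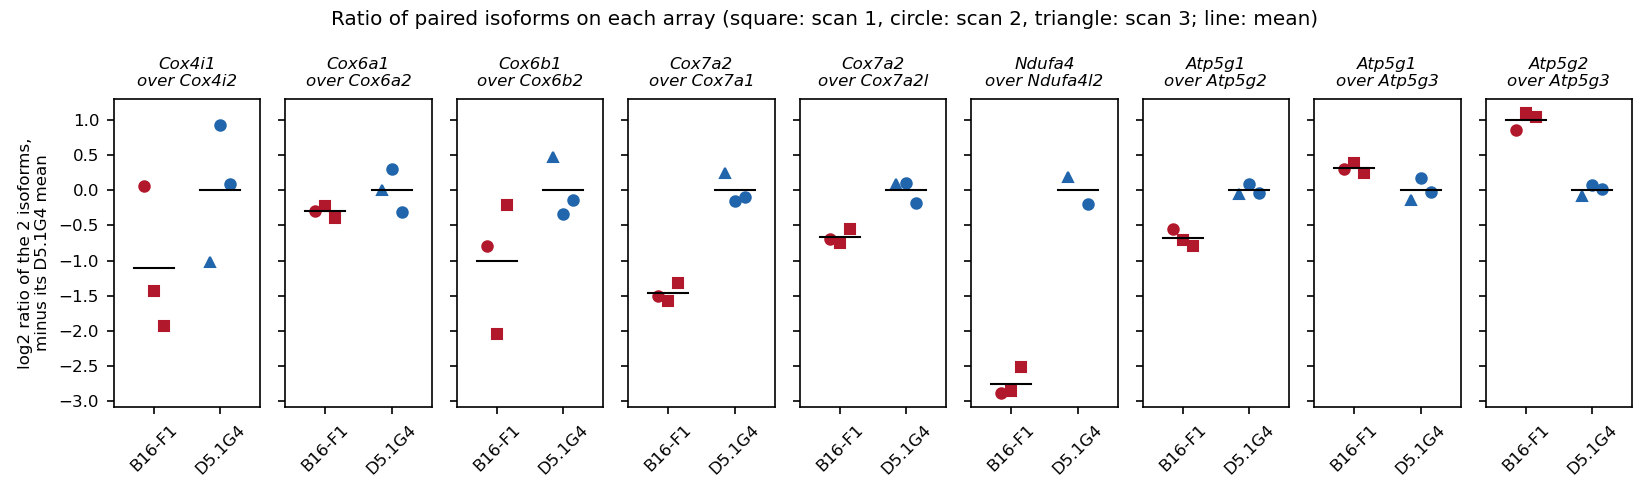
Log2 ratio of the first to the second isoform of each tested pair on every array, minus its mean in D5.1G4 (red B16-F1, blue D5.1G4, symbol by scan, line at the mean). The lines separate for Ndufa4 over Ndufa4l2, Cox7a2 over Cox7a1 and Cox7a2l, and the Atp5g pairs, and overlap for the others.

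Complex V had 17 genes tested, of which 16 were lower in B16-F1 and 10 lower at adjusted p alone, with none called (median -0.54, quantile -0.30). With quantile normalization only 3 were lower at adjusted p alone (17.6%, against 20.1% of all features), and 1, Atp5g2, was higher. Atp5b, the catalytic beta subunit, read 6.11, 6.26 and 6.05 in B16-F1 and 6.55, 6.82 and 6.83 in D5.1G4, and fell by 0.60 (SE 0.13, adjusted p = 0.016 by limma). The lines did not overlap, and the difference was -0.72 within scan 2 and -0.28 with quantile normalization (adjusted p = 0.078 by limma). Atp5a1, the alpha subunit, gave -0.73 (adjusted p = 0.089 by limma) on 3 B16-F1 arrays and 1 D5.1G4 array, and Atp5c1, the gamma subunit of the central stalk, -0.44 (adjusted p = 0.062). In the peripheral stalk, which holds the catalytic head still, Atp5pb fell by 0.37 (adjusted p = 0.042 by limma) and Atp5j by 0.46 (adjusted p = 0.037), while Atp5h gave -0.54 (adjusted p = 0.056) and Atp5o -0.45 (adjusted p = 0.070). Neither Atp5pb (-0.20, adjusted p = 0.17 by limma) nor Atp5j (-0.23, adjusted p = 0.10) passed with quantile normalization. Atp5md, a small membrane subunit, read 4.66, 4.73 and 4.55 against 5.59, 5.67 and 5.47 and fell by 0.93 (SE 0.11, adjusted p = 0.0018 by limma), next to Atp5g3 at the low end of the complex.

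Other genes of the pathway were taken as lists by function. The 14 mitochondrially encoded genes listed were not analysed here, since no probe was matched to them by accession. Among 41 assembly factors of complexes I to V other than the Ndufaf genes, 10 fell and 5 rose at adjusted p alone, with a median of -0.12. These shares lie near those of all features (20.4% and 14.5%). The 1 called was Timmdc1, which acts in complex I assembly (1.58, SE 0.38, adjusted p = 0.022 by limma; 0.92 within scan 2). Its call was lost within scan 2, with scan as a block, without the scan 1 arrays, with normexp background correction, and without B16-F1 replicate 2 (1.49), B16-F1 replicate 3 (1.55) or D5.1G4 replicate 3 (1.65). A list of 19 tested genes held carriers and other subunits, with the Coq genes, Etfa, Etfb, Etfdh, Dhodh and Gpd2. Of these 19, 4 fell and 1 rose at adjusted p alone (median 0.067), where 20.4% and 14.5% of all features did. Slc25a3, the mitochondrial phosphate carrier, was 2.14-fold lower (-1.09, adjusted p = 0.0010 by limma), with -1.09 from its other probe, and -0.89, no longer 2-fold, under quantile normalization. Coq8a, needed for coenzyme Q synthesis, was 3.11-fold higher (1.64, adjusted p = 0.0016 by limma).

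Of 19 regulators of mitochondrial biogenesis, 5 fell and 3 rose at adjusted p alone (median -0.040), near the 20.4% and 14.5% of all features, and 1 was called. Ppargc1a, which encodes PGC-1alpha, read -2.59, -2.91 and -3.00 in B16-F1 and 0.58, -0.37 and -0.05 in D5.1G4. It was 7.39-fold lower in B16-F1 (-2.89, SE 0.26, adjusted p = 0.00066 by limma), with -2.75 from its other probe, -2.38 within scan 2 and -2.96 with quantile normalization. Esrra, the nuclear receptor that PGC-1alpha partners with, fell by 0.88 (adjusted p = 0.0076 by limma). Ppargc1b gave -1.28 (adjusted p = 0.051 by limma), but its probe was well above background on only 3 of the 6 arrays. It read -5.80, -5.32 and -5.85 in B16-F1 and -3.72, -5.24 and -4.16 in D5.1G4, near background, so its difference is not read as a fall. Of the factors whose motifs were searched above, Gabpa rose by 0.82 (adjusted p = 0.039 by limma; n = 2 and 3), with 0.33 from its other probe, and its partner Gabpb1 fell by 0.54 (adjusted p = 0.027). Nrf1 gave -0.49 (adjusted p = 0.074 by limma), with 1.13 and 0.22 from its other probes, and Yy1 -0.040 (adjusted p = 0.84).

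The TCA cycle supplies NADH and succinate, and its list also held genes of pyruvate entry, among them Pdha1, Pdhb, Dlat and Pcx. Of the 18 genes tested, 11 fell and 1 rose at adjusted p alone (median -0.50), against 20.4% and 14.5% of all features. Idh2, the NADP-dependent mitochondrial isocitrate dehydrogenase, was 2.65-fold lower in B16-F1 (-1.41, SE 0.15, adjusted p = 0.0012 by limma; -1.17 with quantile normalization). Ogdh, 2-oxoglutarate dehydrogenase, was 2.39-fold lower (-1.25, adjusted p = 0.0027 by limma), but its 2 other probes gave -0.89 and 0.15, and the mean over probes, -0.67, was not called. Suclg2, the GTP-forming subunit of succinyl-CoA ligase, was 2.13-fold higher (1.09, adjusted p = 0.00080 by limma), the opposite of Idh2 and Ogdh, and fell just short of 2-fold with median scaling (0.97) and normexp background correction (0.98).

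**Figure D5:**
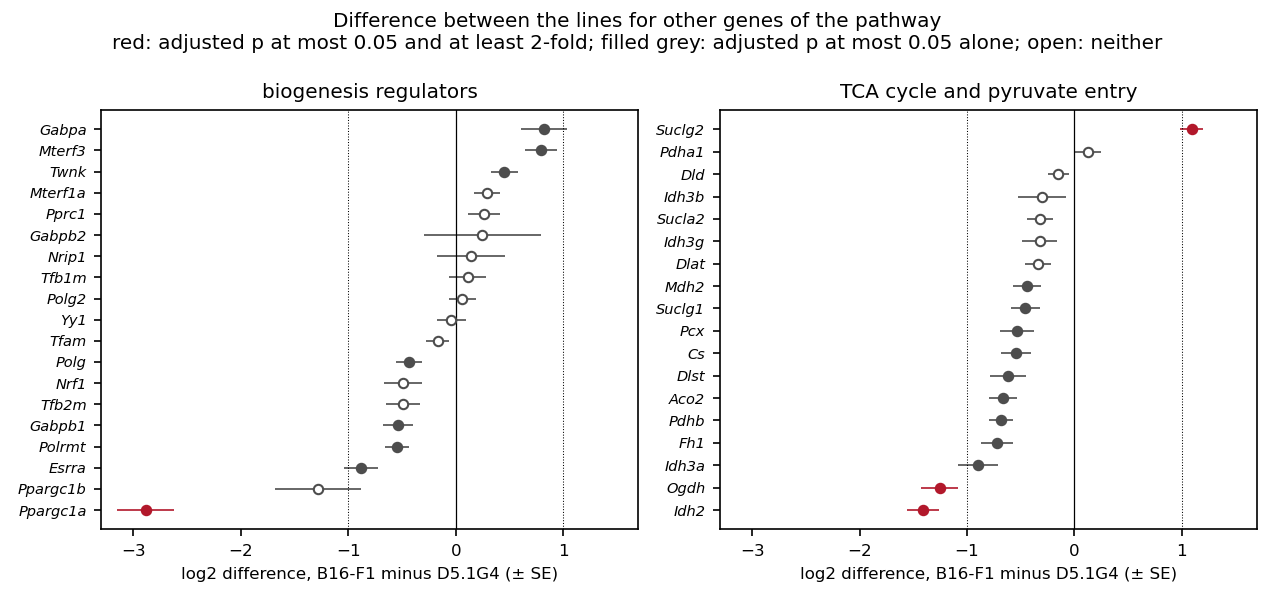
Log2 difference with standard error for biogenesis regulators (left) and genes of the TCA cycle and pyruvate entry (right). Red marks called genes, filled grey an adjusted p of 0.05 or less alone, open neither, and dotted lines 2-fold. Ppargc1a is the lowest point at -2.89 and Suclg2 the highest called at 1.09.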

How the data were processed

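RNA of each line was measured on 3 arrays; whether these were separate cultures is not stated, so p-values cover only the spread between these arrays, possibly technical. The deposited scanner output holds linear spot intensity, from Agilent Feature Extraction 11.0.1.1, per the file headers, with background subtracted within the array; they also carry flags of 0 or 1 (a score per spot) for well above background and non-uniform or outlier spots, per the file headers. The authors' table holds log2 values for 22147 probes, normalized in a way not given in the sources used here; its columns share quartiles as quantile normalization gives, so it is not a separate alternative from quantile normalization.

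Each array's 75th percentile of log2 processed intensity was subtracted. Marked spots (0.67% to 1.58%) were set missing and none was saturated. Accessions were matched to the RefSeq table of GRCm38.p6: 27234 of 39429 probes (69.1%) matched 1 gene and 12195 none. The probe with the highest mean stood for a gene. Testing needed a probe well above background on at least 3 of 6 arrays, and used limma 3.58.1 (lmFit, eBayes, 2-sided) in R 4.3.3 with Benjamini-Hochberg adjustment over all features; a call needed an adjusted p of 0.05 or less and 2-fold. Arrays had 53.4% to 62.0% of spots well above background, correlated at 0.983 to 0.993 within and 0.942 to 0.957 between the lines, and their number limits precision. Scripts were tested on simulated data. The normexp alternative used the median signal (offset 50). Alternatives tried were quantile, median and normexp scaling, the authors' values, filters, marked spots kept, mean over probes, scan, the replicate block, leaving out each array, eBayes with trend and no minimum fold.

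Members and lists were chosen with earlier results of these data known. Genes were named by a rule: all called members, members of isoform pairs, Sdh genes, core subunits, the 5 largest differences each way, undetected members, and called list genes up to 6 a list. The values of 1 member are not reported here. Others complete a count or were chosen after their values were seen. Leaving out the 2 scan 1 arrays was chosen after seeing the data.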

Additional observations from a re-analysis of the deposited data

How the results depend on the processing

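All 9 called genes were called again with the filter on all 6 arrays, no filter, marked spots kept and eBayes with trend; over the 47 single genes examined, 847 values kept their direction and side of the threshold, 45 lost a call, 27 gained one and 17 reversed. Calls over all features were 1275 with normexp and 6435 with no minimum fold. Members called lower were 2 with quantile normalization, 14 with median scaling, 2 with the authors' values and 48 with no minimum fold, and 4 to 12 when each array was left out; members called higher were 3 with no minimum fold and 1 to 2 when each array was left out. The 48 lower at adjusted p alone became 23 with median scaling, 23 with scan as a block, 17 within scan 2, 7 without the scan 1 arrays, and 25 to 44 when each array was left out. Calls in the pathway lists, 7 in the main comparison, became 12 with median scaling and 40 with no minimum fold. The median over all features moved to -0.13 with median scaling, -0.15 with scan as a block, within scan 2 and without the scan 1 arrays, and -0.17 with no filter, and differences of the members are to be read against that shift. The median over all members was -0.34 with quantile normalization, -0.67 with median scaling and -0.33 with the authors' values. With quantile normalization and the authors' values, respectively, it was -0.42 and -0.40 for complex I core, -0.36 and -0.35 for complex I accessory, -0.39 and -0.38 for complex III, -0.22 and -0.19 for complex IV and -0.30 and -0.27 for complex V, which gave -0.65 with median scaling. The assembly factors gave -0.74 with median scaling, -0.74 with scan as a block, -0.75 without the scan 1 arrays and -0.71 to -0.49 when each array was left out, and complex IV -0.59 to -0.40. Reversed isoform ratios were Cox4i1 to Cox4i2 without the scan 1 arrays (0.062), and Cox6a1 to Cox6a2 with quantile normalization (0.063) and the authors' values (0.042). Reversed genes, none of them called, were Cox4i1 with quantile normalization (0.076) and the authors' values (0.091); Atp5g2 with median scaling (-0.080), normexp (-0.11), scan as a block (-0.15), within scan 2 (-0.15), without the scan 1 arrays (-0.059), and between -0.052 and 0.12 when each array was left out; Cox4i2 without the scan 1 arrays (-0.33); Cox6b2 with scan as a block (-0.13), within scan 2 (-0.13) and between -0.10 and 0.80 when each array was left out; Cox7a2l with quantile normalization (0.16), the authors' values (0.17) and the mean over probes (0.13); and Sdhc with the mean over probes (0.063). The cause was not tested. Same-numbered replicates did not deviate together (correlations of deviations -0.39, -0.027 and -0.30), so the numbers do not pair the arrays; with the replicate block 7 members were called lower, 1 higher, and 25 were lower at adjusted p alone. Signal over background limits Cox7b2, Cox8b and Cox8c, which could not be tested.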
